A study of Homo sapiens with 6 samples.

Results

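The 79 genes described here are the heat shock proteins, J-domain proteins, chaperonins and BAG proteins of the cytosol, nucleus and mitochondria, with their transcription factors HSF1 and HSF2. Membership was decided by gene symbol, from the HSPA, HSPB, HSPH, HSP90A, HSPD and HSPE names, the DNAJA, DNAJB and DNAJC names, the BAG and CCT names, TCP1 and CRYAB. Of 107 rows of the count table with such a symbol, 22 were left out as pseudogenes and 6 as chaperones of the lumen of the endoplasmic reticulum (HSPA5, HSPA13, DNAJB9, DNAJB11, DNAJC3 and DNAJC10). The remaining 79 were all among the 18482 genes tested, of 18544 listed. Of the 22 pseudogenes 5 end in P without a number, such as HSP90AA4P, and 4 of the 79 rows are antisense or read-through transcripts that carry a chaperone's name. The set is not purely cytosolic: 8 members were assigned to mitochondria and 6 to the membrane of the endoplasmic reticulum. This assignment was written by hand and covers only some members.

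The libraries came from HMEC-1, an immortalised line of human dermal microvascular endothelial cells, grown in MCDB131 medium with 5.5 mM glucose. Set7KD cells (n = 3) carried a lentiviral shRNA against SETD7, a lysine methyltransferase of histone H3 and of other proteins, and NTC cells (n = 3) a lentiviral non-targeting shRNA. Both groups had therefore received virus, and the labels name no heat, drug or other stress. The labels do not tell whether the replicates of a group came from separate transductions, nor how many shRNA sequences were used. The p-values therefore reflect how much these 6 libraries vary, which may be technical. Levels are given as CPM, gene counts scaled to a common library size, and 1 count was worth 0.0585 to 0.0618 CPM. SETD7 itself measured 180, 178 and 176 CPM in the NTC libraries and 27.8, 43.8 and 26.7 CPM in those of Set7KD.

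Heat shock proteins bind unfolded stretches of other proteins and keep them from clumping. HSP70 proteins do so in cycles of ATP hydrolysis: a J-domain protein hands over the client and starts hydrolysis, and an exchange factor (an HSP110 or a BAG protein) releases ADP and the client. HSP90 finishes the folding of kinases and receptors, TRiC and the mitochondrial HSP60 ring fold proteins in a closed chamber, and small heat shock proteins hold clients without using ATP. Under heat or other protein stress HSF1 binds repeats of the letters GAA in alternating orientation near the start of many of these genes. Most of the family is also made at high levels without stress.

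Of the 79 members, 30 rose in Set7KD, 12 fell and 37 were not called at an edgeR adjusted p under 0.05. Over all genes tested, 17.6% were called higher and 18.6% lower, against 38.0% and 15.2% of the members. Every Set7KD library lay above every NTC library for 41 members and below for 15, beside 23.3% and 24.1% of all genes tested. The median log2 fold change was 0.14 over the members and -0.01 over all genes tested, and single members ranged from -1.05 to 1.82. The members' summed level was 8759, 8803 and 8615 CPM in the NTC libraries and 9882, 10204 and 10093 CPM in the Set7KD libraries, a ratio of 1.15. Over all genes tested the same sums had a ratio of 1.03 and did not overlap either. Without both replicate 1 libraries 13 members were called higher and 4 lower, and the shares of all genes were then 7.66% and 8.46%. All 25 members whose call was lost in that setting kept their direction, and for 15 of them the log2 fold change was as large as before or larger. Without NTC replicate 1 or Set7KD replicate 1 alone 7 members were called lower, beside 13.8% and 13.7% of all genes. Of the 42 called members 5 higher and 2 lower also passed a test against a fold of 1.2.

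**Figure D1:**
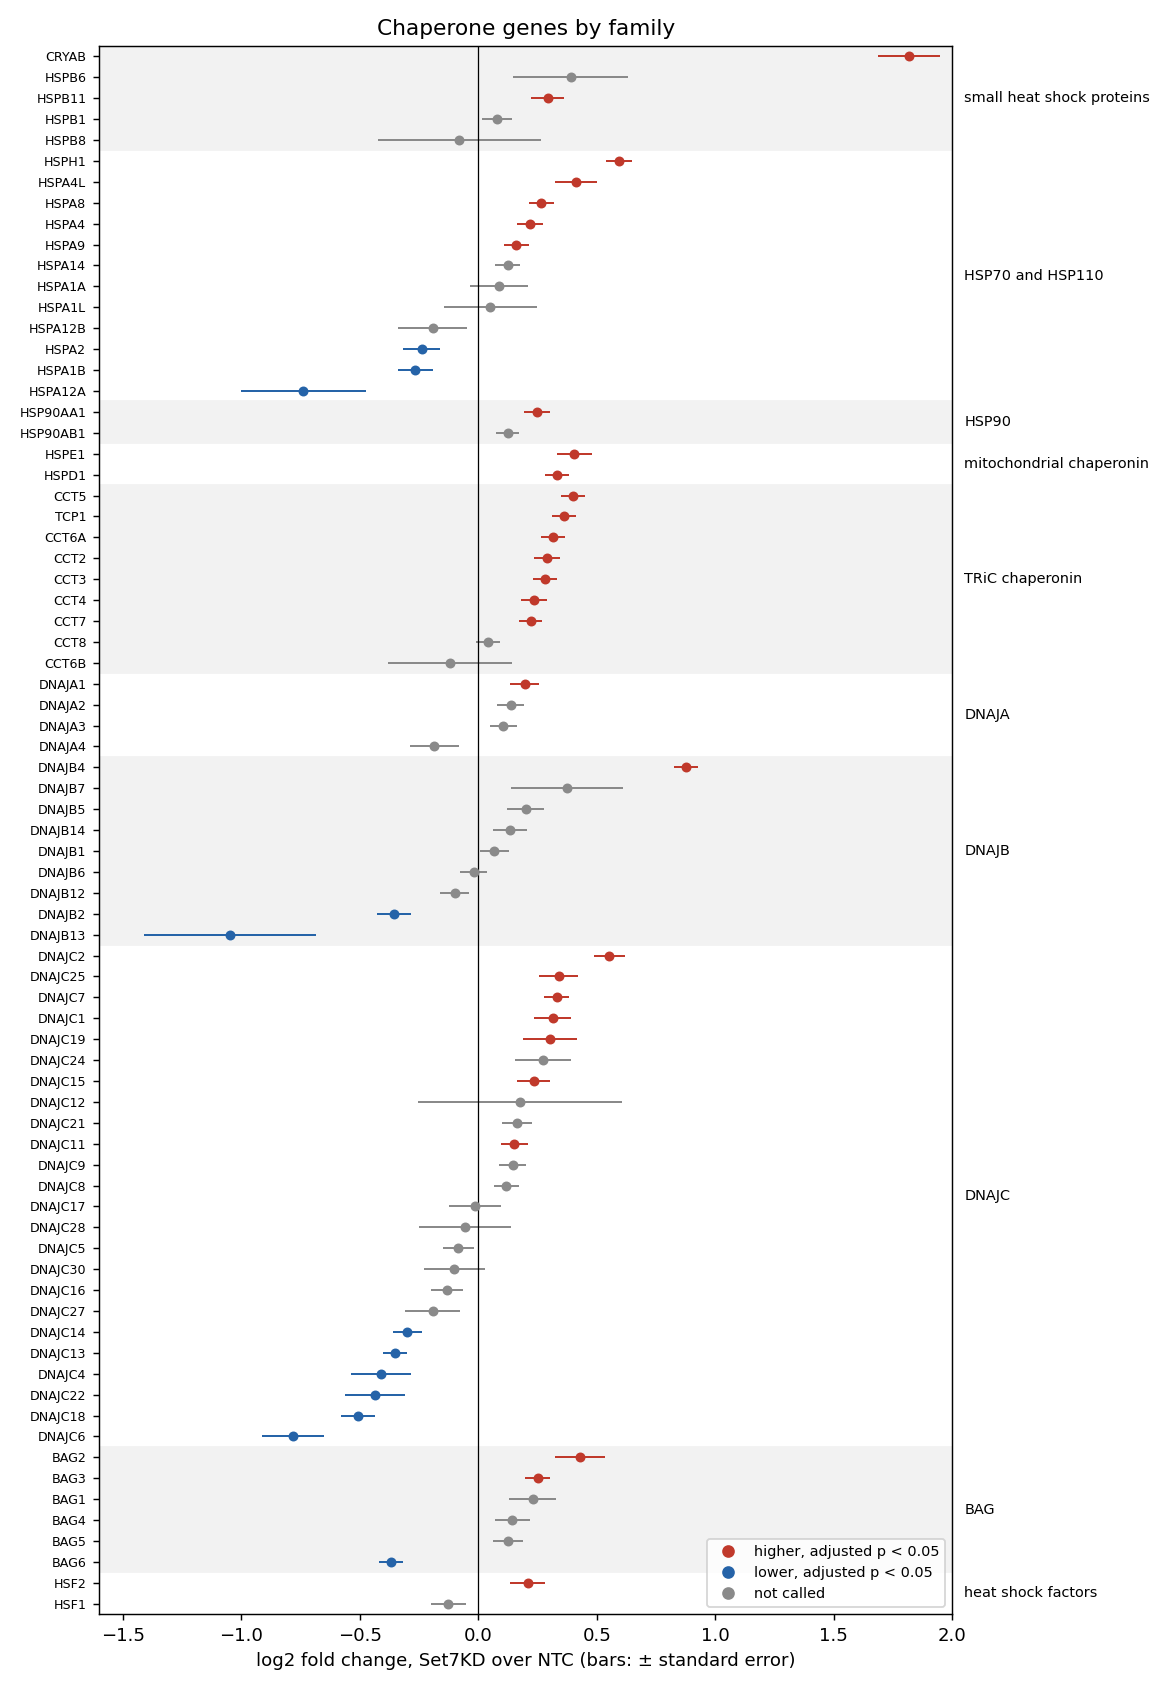
Log2 fold change (Set7KD over NTC, horizontal axis) with its standard error for the 75 members other than antisense and read-through rows, by family. CRYAB at 1.82 lies farthest to the right and DNAJB13 at -1.05 farthest to the left; 7 of the 9 TRiC genes are called higher, whereas the DNAJC genes fall on both sides of 0.

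Promoters were looked up because the heat shock factors act on a known motif. RefSeq windows of 300 bases on GRCh38.p14, 250 before and 50 after a gene's start, were found for 66 of the 75 members with a gene of their own. They were searched on both strands for 3 alternating units, GAANNTTCNNGAA or TTCNNGAANNTTC. This motif was in a window of 0.608% of all genes in the table (166 of 27305) and of 6 of the 66 members (9.09%). Of the 6 genes 4 rose (HSPA8, HSP90AA1, HSPD1 and DNAJA1), none fell and 2 were not called (HSP90AB1 and DNAJB6). Among all 66 members searched 26 rose, 11 fell and 29 were not called. The windows of HSPA1A, HSPA1B, HSPH1, DNAJB1, HSPB1, BAG3 and HSPE1 held no match of 3 units. A link between the motif and the calls was not tested. So that the match itself can be read, 30 bases are printed 5′ to 3′ on the gene's strand with the match in capitals. Numbers after the strand give the first base of the match relative to the gene's start.
HSPA8, chr11:123062345-123062374, minus strand, -230: gcgagcttGAAAGTTCCAGAAcgctgcggt
HSPA8, chr11:123062170-123062199, minus strand, -55: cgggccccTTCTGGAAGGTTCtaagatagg
HSP90AA1, chr14:102087111-102087140, minus strand, -88: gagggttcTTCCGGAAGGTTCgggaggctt
HSP90AB1, chr6:44247770-44247799, plus strand, -165: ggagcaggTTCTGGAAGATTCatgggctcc
HSP90AB1, chr6:44247823-44247852, plus strand, -112: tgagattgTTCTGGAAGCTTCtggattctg
HSPD1, chr2:197500061-197500090, minus strand, -245: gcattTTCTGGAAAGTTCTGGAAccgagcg
DNAJA1, chr9:33025268-33025297, plus strand, 4: gccgggcgGAACTTTCCAGAAcgctcggtg
DNAJB6, chr7:157336865-157336894, plus strand, -131: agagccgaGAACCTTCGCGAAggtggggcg

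In HSPD1 a pair of overlapping matches makes 1 run of 18 bases. HSPD1 and HSPE1 are read in opposite directions on chromosome 2. The run lies between their starts where HSPD1 begins 539 bases from HSPE1, but inside HSPD1 for its other start in the table, 105 bases from HSPE1. A shorter motif of 2 units, GAANNTTC or TTCNNGAA, which every longer match contains, was in a window of 16.2% of all genes, 37.9% of members, 12 of 26 members that rose, 2 of 11 that fell and 11 of 29 not called. A match is a description of the letters and not a measured binding site. CRYAB, HSF1, HSPA12B, HSPA14, BAG4, CCT6A, DNAJC1, DNAJC22 and DNAJC24 were not matched.

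Of the 5 genes grouped by symbol as small heat shock proteins 2 rose, none fell and 3 were not called. CRYAB (ENSG00000109846.3), alpha-B crystallin, a holdase of muscle and lens that many stressed cells also make, held 6.43, 6.02 and 6.90 CPM in NTC and 23.5, 18.5 and 26.2 CPM in Set7KD. All 3 Set7KD libraries lay far above all NTC libraries, and the log2 fold change was 1.82 with a standard error of 0.13 (edgeR adjusted p = 1.61e-07). HSPB11 was counted here by its symbol alone, and RefSeq names it IFT25, a part of the intraflagellar transport machinery of cilia. It rose from 30.3, 34.1 and 32.7 to 40.2, 40.7 and 38.2 CPM, without overlap (log2 fold change 0.29, standard error 0.071, edgeR adjusted p = 0.0045). Without both replicate 1 libraries its adjusted p was 0.128. HSPB1 (HSP27), which took 72.5 to 81.2% of the family's summed level per kilobase of exon in single libraries, held 90.1, 89.7 and 90.9 CPM in NTC and 103, 87.2 and 96.0 CPM in Set7KD, with overlap (adjusted p = 0.341). Rows of its pseudogenes held 24.8% of the counts of gene and copies together, so reads of HSPB1 may be split between them. HSPB6 and HSPB8 measured between 0.67 and 1.81 CPM in all libraries and were not called.

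CRYAB is also a gene of muscle cells, and some markers of smooth muscle and pericytes were higher in the same libraries. Of 11 such markers tested 5 rose (ACTG2, CNN1, TAGLN, MYOCD and LMOD1), none fell and 6 were not called, MYH11 and ACTA2 among them. TAGLN (transgelin) went from a mean of 96.3 to 551 CPM and made up most of the list's gain, and ACTG2 (gamma actin of the gut wall) went from 0.94 to 26.4 CPM. The list's summed level ran from 391 to 441 CPM in NTC libraries and from 779 to 1085 CPM in Set7KD libraries. Among the Set7KD libraries replicate 2 was lowest for this sum, for CRYAB and for the sum of the fibroblast markers below. The same library had the most SETD7 of the Set7KD group (43.8 CPM). Replicate 2 was also lowest among the NTC libraries for CRYAB and for both sums, and SETD7 held 178 CPM there. No link between these was tested. Of 7 fibroblast markers 5 rose and none fell, with sums of 1506 to 2070 CPM in NTC and 3224 to 4183 CPM in Set7KD. COL1A1 alone held a mean of 1555 CPM in NTC, most of the mean sum of 1789 CPM. DCN, FAP and DPT of the fibroblast list were not matched in the count table. Nor were PECAM1 of the endothelial list and DES of the smooth muscle list. Of 9 endothelial markers 2 rose and 3 fell, with sums of 480 to 613 CPM in NTC and 379 to 420 CPM in Set7KD. CDH5 and TIE1, defining markers of endothelium, both fell without overlap, from means of 206 to 119 CPM and of 144 to 87.3 CPM (log2 fold changes -0.80 and -0.72, edgeR adjusted p = 0.00371 and 3.42e-07), and ROBO4 fell too. KDR and TEK, of the same list, rose without overlap, from means of 17.3 to 27.8 CPM and of 45.1 to 58.8 CPM. Their log2 fold changes were 0.68 and 0.38 (edgeR adjusted p = 0.00582 and 0.00125), and the median of the endothelial list was 0.06. MYH11, which marks mature smooth muscle, held 8.79 to 11.6 CPM in NTC and 8.71 to 10.04 CPM in Set7KD. CD14, the leukocyte marker measured, fell from a mean of 5.51 to 3.87 CPM (adjusted p = 0.0147). EPCAM, of epithelium, ran from 0.36 to 0.53 CPM in NTC and from 0.61 to 0.86 CPM in Set7KD and was below the filter for testing. In bulk RNA a change in the share of cells of a kind and a change of RNA per cell cannot be told apart, and the part of these markers in the chaperone results was not tested.

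Among the 12 HSP70 and HSP110 genes 5 rose, 3 fell and 4 were not called. The 5 that rose were the constitutive HSP70 of the cytosol, the mitochondrial HSP70 and all 3 exchange factors of the HSP110 group. HSPH1 (HSP105, ENSG00000120694.14), an HSP110 protein, held 165, 165 and 150 CPM in NTC and 236, 246 and 243 CPM in Set7KD. All Set7KD libraries lay above all NTC libraries, and the log2 fold change was 0.59 (standard error 0.055, edgeR adjusted p = 1.16e-06). HSPA4, also of the HSP110 group, held 330, 346 and 334 CPM in NTC and 379, 418 and 379 CPM in Set7KD (log2 fold change 0.22, standard error 0.055, adjusted p = 0.0053). The related HSPA4L went from 42.4, 47.3 and 38.0 to 56.1, 62.5 and 51.3 CPM, again without overlap (log2 fold change 0.41, standard error 0.088, adjusted p = 0.0024).

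HSPA8 (HSC70, ENSG00000109971.8), the HSP70 that cells make at all times, held 1019, 1000 and 1007 CPM in NTC and 1193, 1223 and 1225 CPM in Set7KD. The groups did not overlap, and the difference of 0.27 on the log2 scale (standard error 0.051, edgeR adjusted p = 0.000837) was the largest gain of any member in CPM. HSPA8 carried 52.7 to 54.2% of the summed level per kilobase of exon of the HSP70 and HSP110 genes in NTC and 54.1 to 55.5% in Set7KD. Without both replicate 1 libraries the adjusted p was 0.0561 for HSPA8, 0.0959 for HSPA4 and 0.0562 for HSPA4L, with log2 fold changes of 0.29, 0.23 and 0.42. HSPA9 (mortalin), the HSP70 of mitochondria, rose from 249, 258 and 246 to 279, 296 and 267 CPM (log2 fold change 0.16, standard error 0.054, adjusted p = 0.0277). Its call was lost without NTC replicate 1 (adjusted p = 0.104), NTC replicate 3 (0.0682), Set7KD replicate 1 (0.075) or Set7KD replicate 2 (0.0808).

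Neither HSPA1A nor HSPA1B, stress-inducible HSP70 genes among the members, was called higher. HSPA6, another HSP70 gene, had no row among the members. HSPA1A and HSPA1B encode nearly the same protein from neighbouring genes of nearly the same sequence, so reads may be split between them in an arbitrary way. HSPA1B held 38.0, 38.4 and 34.2 CPM in NTC and 29.2, 30.5 and 32.3 CPM in Set7KD, and HSPA1A 16.6, 16.3 and 13.6 CPM against 14.8, 15.0 and 19.7 CPM. The HSPA1B libraries did not overlap and the gene was called lower (log2 fold change -0.26, standard error 0.074, edgeR adjusted p = 0.0113), whereas the HSPA1A libraries overlapped (0.09, standard error 0.12, adjusted p = 0.604). With the counts of both genes summed, levels were 54.6, 54.7 and 47.8 CPM in NTC and 44.0, 45.5 and 51.9 CPM in Set7KD. The summed groups overlapped, with a log2 fold change of -0.15, a standard error of 0.077 and an adjusted p of 0.139. The call of HSPA1B was lost without NTC replicate 1 (adjusted p = 0.0564) or Set7KD replicate 1 (0.0655), and HSPA1A turned to -0.05 without Set7KD replicate 3. Whether HSPA8 and the inducible genes differed in their response was not tested.

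Of the remaining HSP70 genes HSPA2, a form abundant in testis, fell from 50.2, 40.8 and 43.8 to 38.5, 38.7 and 37.1 CPM (log2 fold change -0.24, standard error 0.077, edgeR adjusted p = 0.0247). HSPA12A, a distant HSP70 relative, fell from 1.52, 1.32 and 2.16 to 0.97, 0.99 and 1.04 CPM (log2 fold change -0.74, standard error 0.26, adjusted p = 0.0385). Neither pair of groups overlapped, but DESeq2 gave adjusted p-values of 0.0545 and 0.153. HSPA2 lost its call without NTC replicate 1 (adjusted p = 0.171), Set7KD replicate 1 (0.0692) or Set7KD replicate 3 (0.0849). HSPA12A did so on leaving out any 1 library other than NTC replicate 2, with adjusted p-values up to 0.171 (NTC replicate 3). HSPA14, the HSP70 of the ribosome-associated complex, held 83.5, 82.6 and 79.6 CPM in NTC and 88.9, 91.3 and 87.6 CPM in Set7KD. Its libraries did not overlap, and its adjusted p was 0.0823 (0.0428 with the replicate number as a block). HSPA12B and HSPA1L measured between 3.19 and 5.67 CPM and were not called.

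Of the HSP90 pair of the cytosol 1 gene was called. HSP90AA1, the form that heat induces, rose from 839, 873 and 825 CPM to 952, 1038 and 1019 CPM, and HSP90AB1, the steady form, held 683, 672 and 667 CPM in NTC and 729, 743 and 732 CPM in Set7KD. Neither gene's libraries overlapped between the groups. The log2 fold change was 0.25 for HSP90AA1 (standard error 0.055, edgeR adjusted p = 0.00255) and 0.12 for HSP90AB1 (standard error 0.050, adjusted p = 0.0631, or 0.0194 with the replicate number as a block). Without both replicate 1 libraries HSP90AA1 had a log2 fold change of 0.28 and an adjusted p of 0.0622. Per kilobase of exon HSP90AA1 took 41.1 to 42.4% of the pair's level in NTC and 42.6 to 44.2% in Set7KD. The difference between the fold changes of the pair was not tested.

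**Figure D2:**
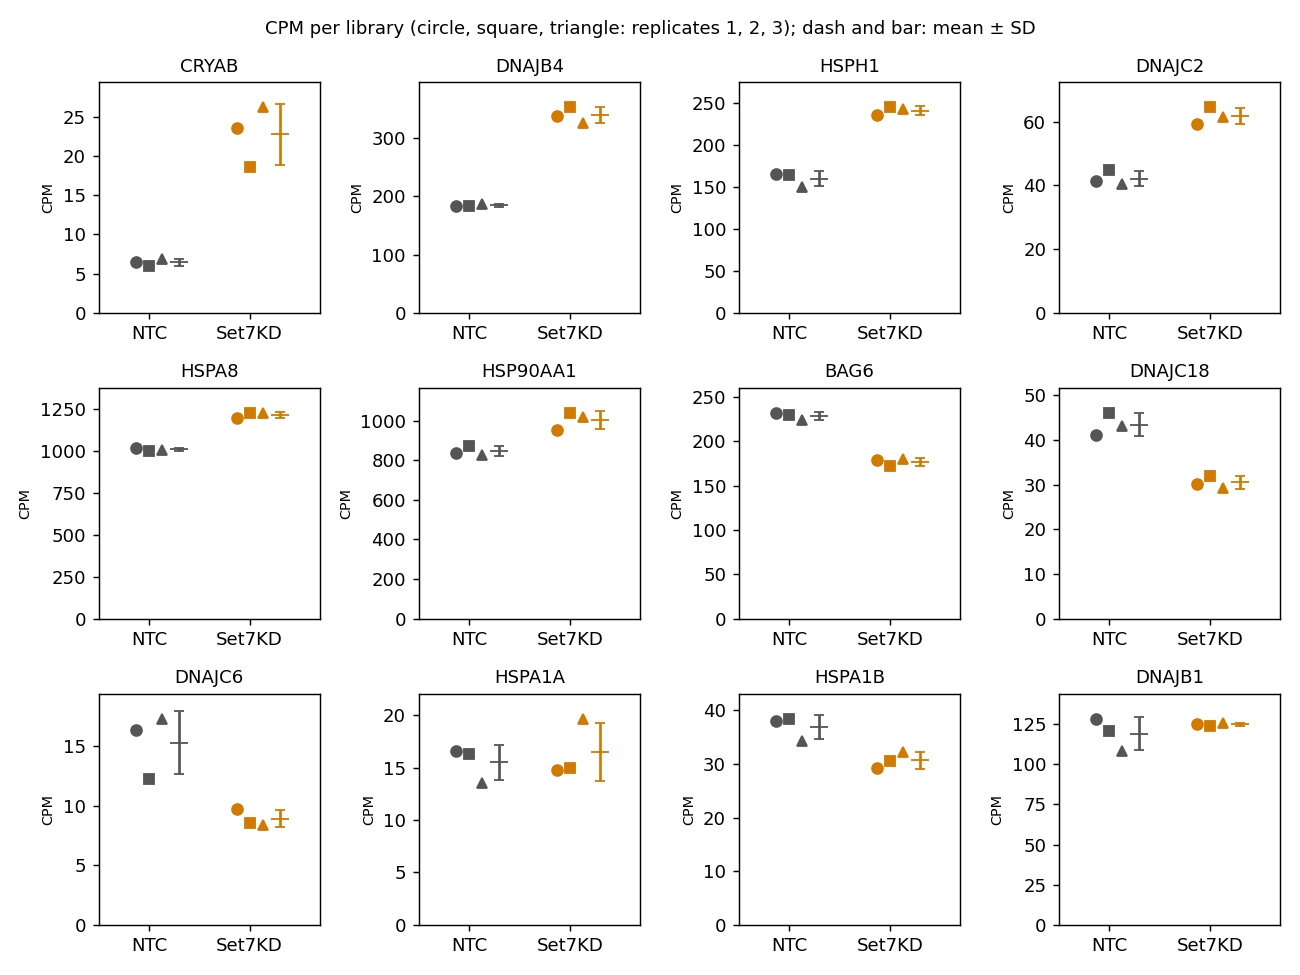
CPM in each of the 6 libraries (vertical axis, from 0) for 12 members, with the mean and SD of each group beside the points. CRYAB, DNAJB4, HSPH1, DNAJC2, HSPA8 and HSP90AA1 lie higher in all 3 Set7KD libraries; BAG6, DNAJC18, DNAJC6 and HSPA1B lie lower; HSPA1A and DNAJB1 overlap.

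Both subunits of the mitochondrial chaperonin rose. HSPD1 (HSP60), which forms the folding chamber, held 151, 151 and 154 CPM in NTC and 184, 197 and 194 CPM in Set7KD. HSPE1 (HSP10), its lid, held 26.4, 25.4 and 26.5 CPM in NTC and 33.0, 36.8 and 33.7 CPM in Set7KD. Set7KD libraries lay above NTC libraries throughout for both genes. The log2 fold change was 0.33 for HSPD1 (standard error 0.051, edgeR adjusted p = 0.000129) and 0.40 for HSPE1 (standard error 0.074, adjusted p = 0.000568), and each kept its call when any 1 library, or both libraries of any replicate number, were left out.

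TRiC, the ring of 8 different subunits that folds actin and tubulin, has 9 genes here, of which 7 rose and none fell. The family's summed level was 2144, 2136 and 2125 CPM in the NTC libraries and 2533, 2582 and 2624 CPM in the Set7KD libraries, a ratio of 1.21. CCT5 (ENSG00000150753.7) held 292, 285 and 290 CPM in NTC and 367, 382 and 394 CPM in Set7KD, and TCP1 (subunit 1) 247, 240 and 251 CPM against 309, 320 and 319 CPM. Neither overlapped, with log2 fold changes of 0.40 (standard error 0.051, edgeR adjusted p = 2.42e-05) and 0.36 (standard error 0.050, adjusted p = 4.78e-05). CCT6A rose by 0.31, CCT2 by 0.29, CCT3 by 0.28, CCT4 by 0.24 and CCT7 by 0.22 on the log2 scale, with adjusted p-values from 0.000185 to 0.00377 and no overlap. CCT4 and CCT7 were not called without both replicate 1 libraries (adjusted p = 0.0895 and 0.0731), with log2 fold changes of 0.24 and 0.23.

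CCT8 was the subunit of the ring that was not called. It held 248, 263 and 249 CPM in NTC and 254, 268 and 260 CPM in Set7KD, with overlap (log2 fold change 0.04, standard error 0.051, edgeR adjusted p = 0.553). Its share of the family's summed level per kilobase of exon was 13.6, 14.5 and 13.8% in NTC and 11.9, 12.4 and 11.8% in Set7KD, so the shares did not overlap. A processed copy of CCT8 held 21.7% of the counts of gene and copy together, and with these added the log2 fold change was 0.05 (adjusted p = 0.472). The difference of CCT8 from the other subunits was chosen after its values were seen and was not tested. CCT6B, a form of subunit 6 known from testis, measured between 0.92 and 1.67 CPM and was not called. In NTC the 8 ring subunits measured 49.5 to 86.3 CPM per kilobase of exon.

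**Figure D3:**
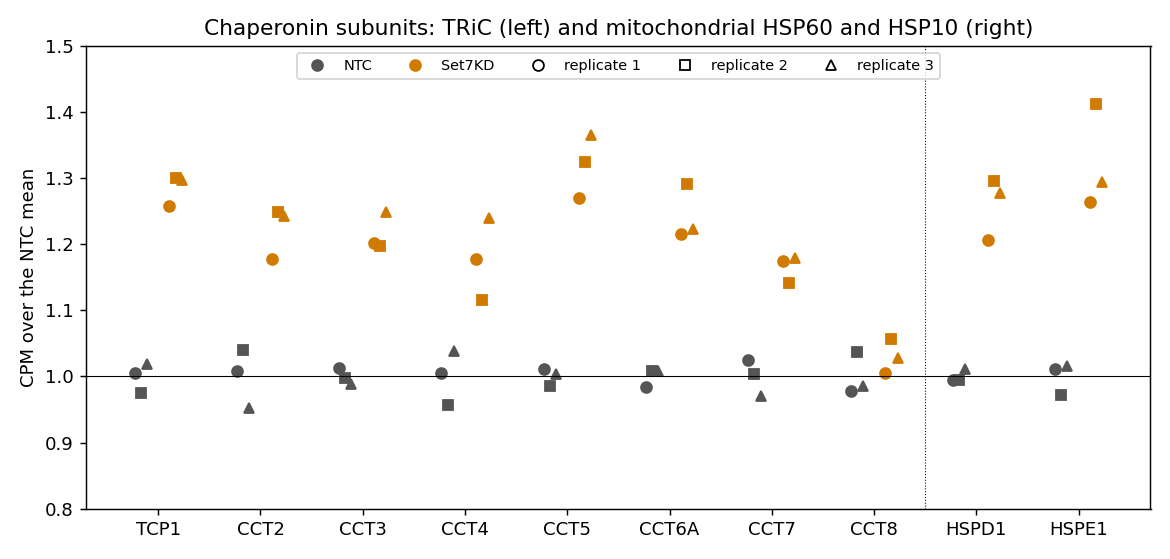
CPM of each library divided by the NTC mean (vertical axis, from 0.8 to 1.5) for the 8 ring subunits of TRiC and the mitochondrial HSPD1 and HSPE1. For every gene shown except CCT8 the 3 Set7KD libraries lie above all NTC libraries.

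Of the 37 J-domain proteins, the partners that choose what HSP70 works on, 9 rose, 8 fell and 20 were not called. Their shares were 24.3% higher and 21.6% lower, not far from the 17.6% and 18.6% of all genes tested. The median log2 fold change of these proteins was 0.11. DNAJB4 (ENSG00000162616.7), a cytosolic J protein closely related to DNAJB1, had the highest log2 fold change of them: it held 183, 184 and 188 CPM in NTC and 339, 354 and 327 CPM in Set7KD. Its groups lay far apart, and the log2 fold change was 0.88 (standard error 0.052, edgeR adjusted p = 2.91e-08). DNAJB1 itself, the J protein induced most by heat, held 128, 121 and 108 CPM in NTC and 125, 124 and 126 CPM in Set7KD. Its libraries overlapped (log2 fold change 0.07, standard error 0.062, adjusted p = 0.422). Per kilobase of exon the NTC mean was 48.9 CPM for DNAJB4 and 32.5 CPM for DNAJB1, and the Set7KD mean 89.8 and 34.0 CPM.

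DNAJB2, a J protein that passes clients to the proteasome, fell from 45.3, 42.1 and 44.1 to 32.2, 33.1 and 37.5 CPM, without overlap (log2 fold change -0.36, standard error 0.074, edgeR adjusted p = 0.00147). Without both replicate 1 libraries its adjusted p was 0.0797. DNAJB13, known from the axoneme of cilia and sperm tails, had the lowest log2 fold change of any member, -1.05 with a standard error of 0.36 (adjusted p = 0.0334). It rested on 1.23, 1.14 and 0.82 CPM in NTC and 0.55, 0.74 and 0.25 CPM in Set7KD, and DESeq2 gave an adjusted p of 0.123. Leaving out NTC replicate 1, NTC replicate 2, Set7KD replicate 1 or Set7KD replicate 3 also ended its call (adjusted p = 0.119, 0.0754, 0.0776 and 0.149). DNAJB5, DNAJB6, DNAJB7, DNAJB12 and DNAJB14 were not called, with log2 fold changes from -0.10 to 0.38. DNAJB5 had an adjusted p of 0.0386 with the replicate number as a block.

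In the DNAJA class, the closest relatives of bacterial DnaJ, DNAJA1 rose and the other 3 were not called. DNAJA1, the most abundant J protein here at 114 CPM per kilobase of exon in NTC, held 314, 336 and 286 CPM in NTC and 352, 372 and 350 CPM in Set7KD. The groups did not overlap (log2 fold change 0.20, standard error 0.061, edgeR adjusted p = 0.0191). Its call was lost without NTC replicate 1 (adjusted p = 0.0648) or NTC replicate 3 (0.0832). DNAJA2, another cytosolic J protein, held 83.5, 85.7 and 91.9 CPM in NTC and 92.2, 99.5 and 95.3 CPM in Set7KD (log2 fold change 0.14, adjusted p = 0.0767, or 0.0342 with the replicate number as a block). DNAJA3, of mitochondria, and DNAJA4 had log2 fold changes of 0.11 and -0.19 (adjusted p = 0.163 and 0.177).

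The DNAJC class holds J proteins with dissimilar structures and places of work, and 7 of its 24 genes rose and 6 fell. These were 29.2% and 25% of the class, beside 17.6% and 18.6% of all genes tested. DNAJC2 (zuotin, ENSG00000105821.10), which works at the ribosome together with HSPA14, had the highest log2 fold change of the class: 41.2, 44.9 and 40.3 CPM in NTC against 59.4, 64.6 and 61.4 CPM in Set7KD. The groups did not overlap (log2 fold change 0.55, standard error 0.066, edgeR adjusted p = 1.32e-05). The other 4 members of the ribosome, translation and RNA group, DNAJC8, DNAJC17, DNAJC21 and DNAJC24, were not called, and DNAJC8, DNAJC21 and DNAJC24 had adjusted p-values of 0.0469, 0.0154 and 0.0225 with the replicate number as a block. DNAJC7, which binds HSP70 and HSP90 through its TPR repeats, rose from 108, 114 and 107 to 135, 138 and 141 CPM (log2 fold change 0.33, standard error 0.052, adjusted p = 0.000164). DNAJC9, a J protein that chaperones histones, held 62.3, 63.5 and 59.2 CPM in NTC and 67.5, 68.4 and 68.7 CPM in Set7KD, with an adjusted p of 0.0574 (0.031 with the block).

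Both members assigned to clathrin coats and endosomes fell. Membership went by symbol, so J proteins without a DNAJ name were not counted here. DNAJC6 (auxilin, ENSG00000116675.10), which recruits HSP70 to strip clathrin from vesicles, fell from 16.4, 12.3 and 17.3 to 9.74, 8.59 and 8.39 CPM. DNAJC13 (RME-8), of endosomes, fell from 183, 185 and 184 to 147, 147 and 138 CPM. Set7KD libraries lay below NTC libraries in both, and the log2 fold changes were -0.78 (standard error 0.13, edgeR adjusted p = 0.000277) and -0.35 (standard error 0.051, adjusted p = 7.9e-05). DNAJC5, the cysteine string protein of secretory vesicles, held 116, 104 and 110 CPM in NTC and 104, 95.7 and 112 CPM in Set7KD, with overlap (adjusted p = 0.339).

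Of the 6 J proteins in the membrane of the endoplasmic reticulum 1 rose and 2 fell. DNAJC18 (ENSG00000170464.5) fell from 41.0, 46.0 and 43.1 to 30.2, 32.0 and 29.2 CPM, without overlap (log2 fold change -0.51, standard error 0.072, edgeR adjusted p = 6.26e-05). DNAJC14 fell from 80.2, 78.2 and 74.5 to 59.6, 66.8 and 62.9 CPM (-0.30, standard error 0.061, adjusted p = 0.00135), and DNAJC1 rose from 24.2, 23.9 and 23.7 to 29.8, 27.6 and 31.8 CPM (0.31, standard error 0.078, adjusted p = 0.00543). Both were separated between the groups, and without both replicate 1 libraries their adjusted p-values were 0.0844 and 0.0792. DNAJB12, DNAJB14 and DNAJC16 were not called.

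Of the 8 members assigned here to mitochondria 6 rose and none fell: HSPD1, HSPE1 and HSPA9, already given, and 3 J proteins. The assignment leaves many members without a place, among them DNAJC4, which fell, and DNAJC28, which was not called. DNAJC15 and DNAJC19, J proteins of the import motor of the inner membrane, rose by 0.23 and 0.30 on the log2 scale (edgeR adjusted p = 0.016 and 0.0475), and DNAJC11, of the complex that shapes the cristae, by 0.15 (adjusted p = 0.0492). These 3 calls were close to the threshold. Without NTC replicate 1 their adjusted p-values were 0.0554, 0.0908 and 0.0996 and without NTC replicate 3 they were 0.0515, 0.13 and 0.109. DNAJC19 was also lost without NTC replicate 2 (0.0643), Set7KD replicate 2 (0.1) or Set7KD replicate 3 (0.133), and DNAJC11 without NTC replicate 2 (0.0887), Set7KD replicate 1 (0.11) or Set7KD replicate 3 (0.158). DNAJA3 and DNAJC30 were not called.

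The other DNAJC calls concerned genes of lower level. DNAJC25 rose from 20.7, 19.5 and 20.2 to 25.1, 27.3 and 24.1 CPM (log2 fold change 0.34, standard error 0.082, edgeR adjusted p = 0.00434, or 0.0536 without both replicate 1 libraries). Its read-through row DNAJC25-GNG10 rose by 0.38 (adjusted p = 0.0175), but shares exons with DNAJC25 and is no separate evidence, and its call was lost without NTC replicate 2 (0.0662) or Set7KD replicate 2 (0.0835). DNAJC4 fell by 0.41 and DNAJC22 by 0.43 on the log2 scale (adjusted p = 0.0189 and 0.0131), with all 3 Set7KD libraries below all NTC libraries. DNAJC4 was not called without NTC replicate 1 (adjusted p = 0.0902) or Set7KD replicate 2 (0.0803), nor DNAJC22 without Set7KD replicate 1 (0.082). DNAJC12, DNAJC27 and DNAJC28 were not called, and neither were the rows DNAJC3-AS1, DNAJC9-AS1 and HSPB2-C11orf52. In the whole DNAJC class 11 genes were called higher with the replicate number as a block, and 4 without NTC replicate 1, where 13.1% of all genes were called higher.

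Among the 6 BAG proteins 2 rose and 1 fell. BAG6 (ENSG00000204463.7), which shields hydrophobic stretches of new membrane proteins in the cytosol, fell from 232, 230 and 224 to 179, 172 and 180 CPM. The groups lay well apart (log2 fold change -0.37, standard error 0.050, edgeR adjusted p = 4.29e-05). BAG3, the exchange factor that works with HSPB8 in selective autophagy and is itself induced by heat, rose from 77.4, 80.8 and 80.9 to 97.8, 92.5 and 94.1 CPM (log2 fold change 0.25, standard error 0.054, adjusted p = 0.00205). BAG2, which restrains the ubiquitin ligase CHIP, rose from 21.1, 16.9 and 20.9 to 24.6, 30.2 and 24.6 CPM (log2 fold change 0.43, standard error 0.11, adjusted p = 0.00542). Neither overlapped, and their adjusted p-values were 0.101 without both replicate 1 libraries for BAG3 and 0.0632 without both replicate 2 libraries for BAG2. BAG1, BAG4 and BAG5 were not called, with log2 fold changes from 0.13 to 0.23, and BAG1 had an adjusted p of 0.0131 with the replicate number as a block.

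Of the heat shock factors among the members HSF2 rose and HSF1 was not called. HSF4, counted below with further genes of the response, fell from 7.54, 6.80 and 6.49 to 4.54, 4.39 and 5.94 CPM. Its libraries did not overlap (log2 fold change -0.49, standard error 0.15, edgeR adjusted p = 0.0166). HSF1, the master factor of the heat shock response, held 73.7, 68.0 and 71.3 CPM in NTC and 64.8, 57.7 and 72.8 CPM in Set7KD, with overlap (log2 fold change -0.13, standard error 0.075, edgeR adjusted p = 0.212). Without Set7KD replicate 3 its log2 fold change was -0.21 and its adjusted p 0.0442. HSF2, which acts with HSF1 and in development, rose from 29.7, 29.3 and 28.3 to 32.1, 35.7 and 33.0 CPM (log2 fold change 0.21, standard error 0.073, adjusted p = 0.0344). DESeq2 gave 0.0819 for HSF2, and its call was lost on leaving out any 1 library other than Set7KD replicate 1, with adjusted p-values from 0.0523 (Set7KD replicate 3) to 0.0985 (Set7KD replicate 2).

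Per kilobase of exon, the most abundant members in NTC were HSP90AB1 (226 CPM), HSPA8 (208 CPM), HSP90AA1 (161 CPM) and DNAJA1 (114 CPM), and the least abundant was HSPA12A (0.14 CPM). HSPA8 measured 250 CPM per kilobase in Set7KD and HSP90AB1 247. These lengths join all annotated exons of a gene, so a gene with long rare exons appears lower than it is.

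Partners of these chaperones were then counted from lists written for this purpose. Of 20 co-chaperones of HSP90, 10 rose and 4 fell, with a median log2 fold change of 0.22. These were 50% and 20%, beside 17.6% and 18.6% of all genes tested. The 4 with the smallest p-values were AHSA2, FKBP5, PTGES3 and PIH1D1. PTGES3 (p23), which stabilises the closed form of HSP90, rose from 154, 161 and 154 to 198, 209 and 210 CPM, and FKBP5, a prolyl isomerase of steroid receptor complexes, from 288, 300 and 305 to 397, 424 and 389 CPM. PIH1D1, of the R2TP complex, fell from 68.1, 65.4 and 60.2 to 46.8, 46.9 and 43.2 CPM, and AHSA2, a relative of the HSP90 activator AHSA1, from 77.8, 78.7 and 84.1 to 52.6, 58.0 and 49.3 CPM. None of the 4 overlapped between the groups, and their edgeR adjusted p-values lay between 8.93e-06 and 3.62e-05.

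The remaining lists held fewer calls, to be read beside the 17.6% of all genes tested that were called higher and the 18.6% called lower. Of 9 HSP70 adaptors and exchange factors outside the HSP110 and BAG groups 3 rose and none fell: TOMM34 (log2 fold change 0.60, edgeR adjusted p = 7.86e-05) and TOMM70A (0.38, 5.13e-05), which serve the import of mitochondrial proteins, and TTC1 (0.25, 0.00631). Of 12 prefoldin and phosducin-like proteins, which bring clients to TRiC, 2 rose and 2 fell (16.7% each, close to the shares of all genes). Their median log2 fold change was -0.02, beside -0.01 over all genes tested and 0.28 for TRiC itself. The difference of this list from TRiC was not tested. TXNDC9, a phosducin-like regulator of TRiC, rose by 0.45 and VBP1, a prefoldin subunit, by 0.24 on the log2 scale (adjusted p = 0.00045 and 0.00293), whereas PFDN4 and PDCL3 fell by 0.31 and 0.34 (0.0448 and 0.0483). Of 13 other genes of mitochondrial folding and quality control 3 rose and 3 fell (23.1% each). GRPEL1, the exchange factor of HSPA9, rose by 0.32 and its relative GRPEL2 fell by 0.29 on the log2 scale (adjusted p = 0.00166 and 0.00594), and TIMM44, the anchor of HSPA9 at the import channel, rose by 0.39 (adjusted p = 0.000747).

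**Figure D4:**
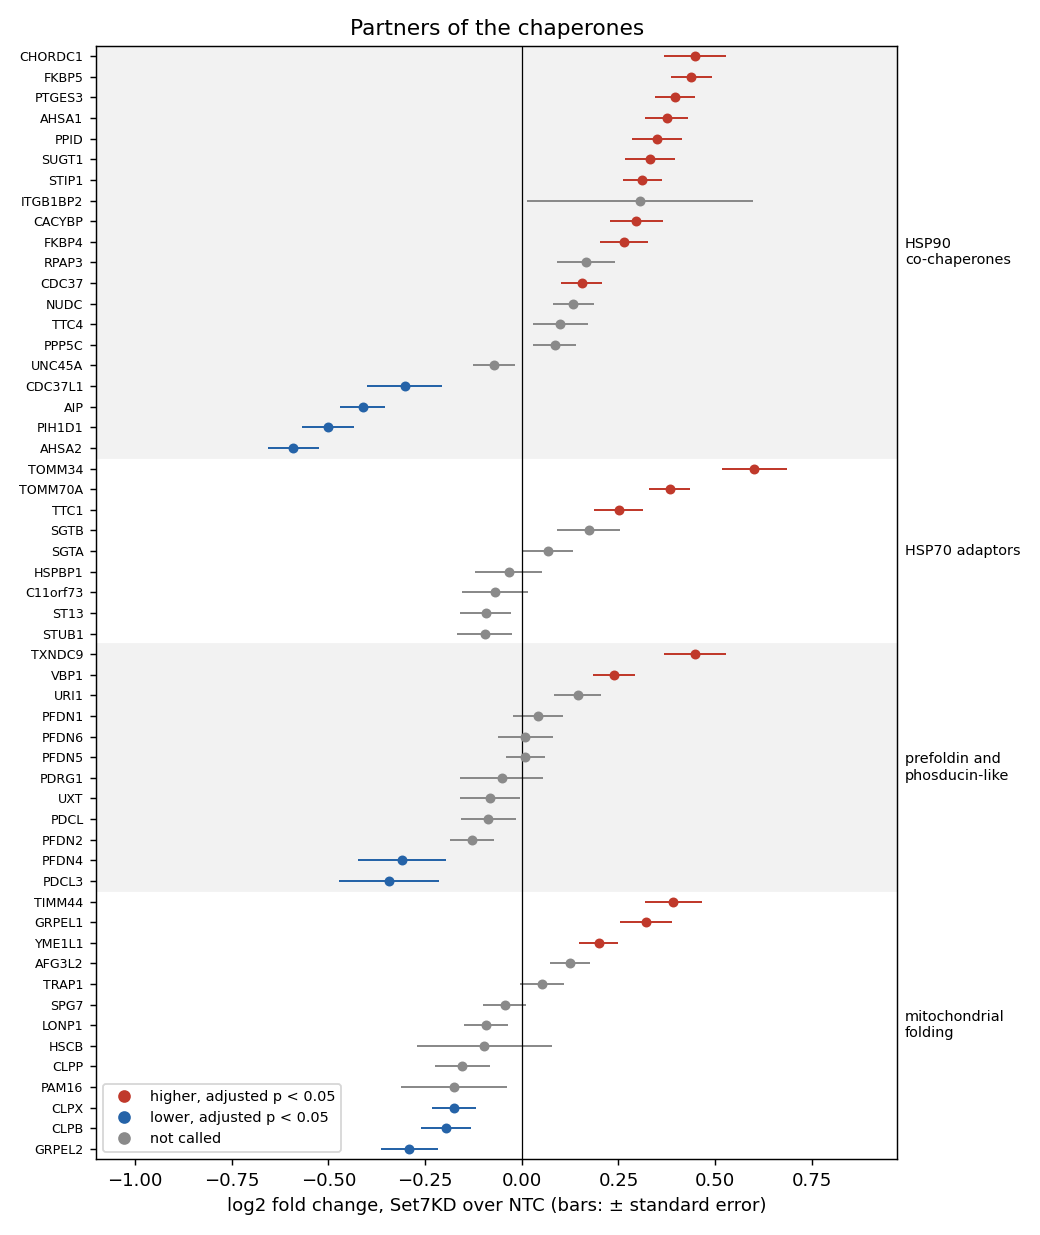
Log2 fold change (Set7KD over NTC, horizontal axis) with its standard error for 54 partner genes in 4 lists. The HSP90 co-chaperones hold 10 calls to the right of 0 and 4 to the left, and most prefoldin genes lie near 0.

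Of 9 further genes that aid or report the heat shock response 3 rose and 5 fell, with a median log2 fold change of -0.27. These were 33.3% and 55.6%, beside 17.6% and 18.6% of all genes tested. ZFAND2A, which stress induces, rose from 6.61, 5.96 and 5.85 to 9.14, 9.15 and 8.02 CPM (log2 fold change 0.51, edgeR adjusted p = 0.00409). HSBP1L1, a relative of the HSF1-binding protein HSBP1, fell by 0.65 on the log2 scale, SQSTM1, an autophagy receptor, by 0.32 and HDAC6, a deacetylase that binds ubiquitin, by 0.27 (adjusted p = 0.000171, 0.0111 and 0.00627).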

How the data were processed

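The authors deposited a table of read counts per gene, as whole numbers, for 6 libraries of poly-A RNA; BWA, bedtools and hg19 are named in the submitters' processing notes, with no tool version. The use of strand and the handling of multiply matching reads are not given in the sources used here. Each library held 16385878 to 16953331 gene counts. A row for reads outside genes, with 55.6 to 56.1% of all counts, stayed out of library sizes and tests. Each listed gene had at least 60 counts in sum.

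Counts were fitted over the whole table in edgeR 4.0.16 (R 4.3.3; filterByExpr, TMM, robust glmQLFit, glmQLFTest, group as the single factor), with Benjamini-Hochberg adjustment over 18482 genes and a threshold of 0.05. The fit was tested on simulated data. The standard error is the absolute log2 fold change over the square root of F. Exon lengths came from GENCODE 29 and promoter windows from RefSeq (GRCh38.p14); no coordinate was moved between builds.

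The members and lists were chosen with earlier results of these data known. The naming rule took, per family, up to 4 members with the smallest p and the most abundant one, 16 much-studied heat shock genes, and up to 4 genes of each partner list; other members were named to account for them. Markers of other cells were named from their lists, and HSF4 was named beyond the rule as a heat shock factor.

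Deviations from the group means over the 11151 genes averaging 10 CPM or more had correlations of 0.3, 0.417 and 0.339 for libraries sharing a replicate number, and of -0.356 to -0.0388 for the others. All 3 exceed 0.1, the threshold used, so same-numbered libraries were taken as pairs in the alternative with a replicate block. The main fit, with group as the single factor, did not use this pairing, and its p-values are unpaired. This pairing is read from the data, as the labels do not define the numbers. Alternatives were RLE normalization, no filter, DESeq2 1.42.0, a replicate block, a test against a fold of 1.2 (glmTreat), and leaving out 1 library or both libraries of a replicate number. Adding the counts of pseudogene copies to their parent genes, and summing HSPA1A and HSPA1B, were chosen after seeing the data. These alternatives were run for the members.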

Additional observations from a re-analysis of the deposited data

How the results depend on the processing

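The count of members called higher (30) was 32 with RLE normalization, 30 without a filter, 27 with DESeq2 and 30 with copies pooled, and that called lower (12) was 12, 12, 9 and 12. A test against a fold of 1.2 called 5 and 2. With the replicate block 39 and 12 were called: none of the 42 calls was lost and 9 members were gained. The shares of all genes called were not taken for these alternatives, so the changes in count cannot be called particular to the members. Over the settings that left out 1 library or both libraries of a replicate number, 13 to 29 were called higher and 4 to 11 lower. The shares of all genes ran from 7.66 to 17.3% higher and from 8.46 to 17.8% lower in these settings. Of the 42 called members 26 lost their call in at least 1 of them. Called in all 15 alternatives were CRYAB, DNAJB4, HSPH1, DNAJC2, CCT5, DNAJC18 and DNAJC6.

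No called member changed sign among the 41 members followed in every setting. HSPA1A turned to -0.05051 without Set7KD replicate 3, and over the settings that left out libraries it ran from -0.1307 (both libraries of replicate 3) to 0.2125. DNAJC9-AS1 ran from -0.001841 (without both libraries of replicate 1) to 0.1524. The cause was not tested. Levels near 1 CPM limit what can be seen of DNAJB13, HSPA12A, HSPB6, HSPB8 and CCT6B.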
